A study of Mus musculus with 36 samples.

Results

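Gata3, Gata2, Emx2, Emx1, Tfap2a, Tfap2b and Grhl2 are transcription factor genes of the nephric duct and of the ureteric bud, its outgrowth into the kidney rudiment. The 7 genes were taken by their symbols from the 22761 genes of the expression table and followed across all 36 libraries, which form 9 groups of 4. The study made 3 kinds of renal cells from mouse embryonic stem cells (mESC), namely engineered ureteric bud (eUB), induced nephron progenitor (iNP) and induced stromal progenitor (iSP) cells, and set each beside the same cell type taken directly from fetal kidneys (ex-fetu UB, NP and SP). Ex-fetu cells came from CD1 mice at embryonic day (E) 11.5 and at E12.5, with the kidneys of all embryos of a mouse pooled in a sample. The eUB cells came from an mESC reporter line, which the sample labels and the sequencing methods call Sox9-mCherry and other passages of the study, its account of how the line was made among them, call Sox8-mCherry, and the iNP and iSP cells from the E14 mESC line, with the embryoid bodies of 1 differentiation batch pooled in a sample, so that cell type, line and protocol cannot be told apart between eUB cells and the ES-derived mesenchymes. Cells were sorted before sequencing: UB as RET and EpCAM positive, eUB as EpCAM and mCherry positive, NP and iNP as ITGA8 high and PDGFRA low, and SP and iSP as ITGA8 low and PDGFRA high, the mesenchymes after removal of CD31 positive cells and of cells positive for the bud proteins.

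The nephric duct is the epithelial tube from which the ureteric bud grows, and the bud then branches into the collecting duct tree while the surrounding mesenchyme supplies nephrons and stroma. Gata3 acts in the duct downstream of Pax2 and Pax8 and is needed there for Ret expression, and Gata2 is a related zinc finger factor that also acts in the urogenital mesenchyme and in blood cells. Emx2 is a homeobox gene without which the bud forms but fails to branch, and Emx1 is its closest relative. Tfap2a and Tfap2b encode AP-2 factors, known in neural crest, surface ectoderm and, for Tfap2b, the distal nephron, and Grhl2 encodes a grainyhead-like factor that maintains epithelial junction genes such as Cdh1 and claudins in the duct.

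Values are normalised CPM, which are CPM values (reads of a gene relative to all reads of its library) that the study's authors scaled with edgeR's normalisation factors. Differences were tested with limma on log2(normalised CPM + 1) over all genes that reached a value of 1 in at least 4 libraries of a comparison, and a gene is called when its Benjamini-Hochberg adjusted p-value is below 0.05. Fold changes on this scale understate the change of genes with low values. In bulk RNA from sorted cells, fewer cells that express a gene and less of its RNA in each cell cannot be told apart. The libraries held between 13.0 and 52.5 M reads on genes, and 3 reads, the limit that a count of 0 allows, corresponded to 0.0605 to 0.223 normalised CPM.

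The sorted populations carried the markers of their names with exceptions. Six2, the defining factor of nephron progenitors, averaged 139 in iNP against 590.2 in E11.5 NP cells, and Foxd1, the defining factor of renal stroma, averaged 15.2 in iSP against 410.4 in E11.5 SP cells. Foxd1 averaged 20.1 in eUB cells, and its ranges in iSP and eUB overlapped. Ret, the receptor of the bud tip that also served in the sort of ex-fetu UB, averaged 473 in eUB and 364 in E11.5 UB cells. Libraries are numbered within their group by the replicate number of the labels. E12.5 UB library 1 stood apart: its 7 nephron progenitor markers summed to 323 normalised CPM against 29.8 to 40.6 in the other 3 libraries, its 6 stroma markers to 311 against 15.1 to 31.9, and its 8 bud markers to 2182 against 3294 to 3598. E11.5 NP library 1 (neural crest markers 51.1 against 19.8 to 27.4), E12.5 NP library 1 (bud markers 93.0 against 25.7 to 34.5), E12.5 SP library 1 (stroma markers 3335 against 5167 to 5584) and E11.5 SP library 4 (bud markers 124 against 212 to 270.2) also stood apart, and a result is also given without such a library where that changed its call or moved a called value by more than 1.5 times. For the ex-fetu UB cells the titles and the cell type labels give 1 age and the cell source labels the other. The titles were used, so every comparison between the UB ages, and every statement of a single UB age, depends on that choice.

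The 250 bases before a transcription start are shown for the 2 members whose levels in eUB cells fell furthest below those of ex-fetu UB cells, Tfap2b and Gata2. They are windows that lie outside annotated exons, from RefSeq on GRCm38.p6, printed 5′ to 3′ on the plus strand with CpG dinucleotides in capitals.

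Tfap2b, chr1:19211804-19212053: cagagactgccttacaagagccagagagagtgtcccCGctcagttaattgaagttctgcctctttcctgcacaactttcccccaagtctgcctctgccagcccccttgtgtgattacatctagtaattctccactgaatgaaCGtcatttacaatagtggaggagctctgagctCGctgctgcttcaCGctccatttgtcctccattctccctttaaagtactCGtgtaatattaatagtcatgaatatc

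Gata2, chr6:88193641-88193890: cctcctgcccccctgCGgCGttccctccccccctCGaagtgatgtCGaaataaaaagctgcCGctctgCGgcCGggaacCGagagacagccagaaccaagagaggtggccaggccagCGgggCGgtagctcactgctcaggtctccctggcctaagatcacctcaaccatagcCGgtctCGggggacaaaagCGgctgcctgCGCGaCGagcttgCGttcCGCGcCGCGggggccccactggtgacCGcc

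The Tfap2b window had 5 CpG and 46.4% GC, and the Gata2 window had 22 CpG and 67.2% GC. The medians over 32851 such RefSeq windows were 6 CpG and 52.4% GC, so that the Gata2 window was CpG-rich and the Tfap2b window was not. The Tfap2b window lies inside the gene as GENCODE vM21 annotates it (chromosome 1, 19208914 to 19238576, plus strand), between exons of its longer transcripts, and the Gata2 window ends at the annotated start of the gene (chromosome 6, 88193891 to 88207032, plus strand). Neither window held AGATAA (the GATA motif, found in 9.99% of all windows), GCCNNNGGC (AP-2, 13.7%), AACNNGTT (grainyhead, 3.64%) or TAATTA (homeobox, 4.84%) on either strand. Of the 6 other windows of members, which overlap annotated exons and are not shown, the Gata3 window held 3 matches to GCCNNNGGC, the second Gata2 window held 1, and 1 of the 2 Tfap2a windows held TAATTA. RefSeq windows were found for 6 of the 7 members, all but Grhl2.

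The members were mostly higher in the bud than in the mesenchymes. At E11.5, 5 of the 6 members that passed the filter were higher in UB than in the mean of NP and SP cells and 0 were lower, where 56.4% of all genes tested were called. At E12.5 all 7 passed the filter and 7 were higher, beside 40.3% of all genes. Among the ES-derived cells 6 of 7 were higher in eUB than in iNP and iSP cells and 1, Gata2, was lower, beside 62.9% of all genes. Several members passed the filter only through the bud libraries, so that only a higher bud level could be tested: Tfap2a, Tfap2b and Grhl2 at E11.5, these 3 and Emx1 at E12.5, and Emx1 and Grhl2 among ES-derived cells. With a filter that needs 6 of the 12 libraries, 3 members were called at E12.5. The counts are therefore a description. The median log2 fold change of the members tested was 5.58 at E11.5, 5.95 at E12.5 and 3.30 in ES-derived cells, while that of all genes was between -0.02 and -0.01. Single-library levels of each member in every group are in the panels of member levels.

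**Figure D1:**
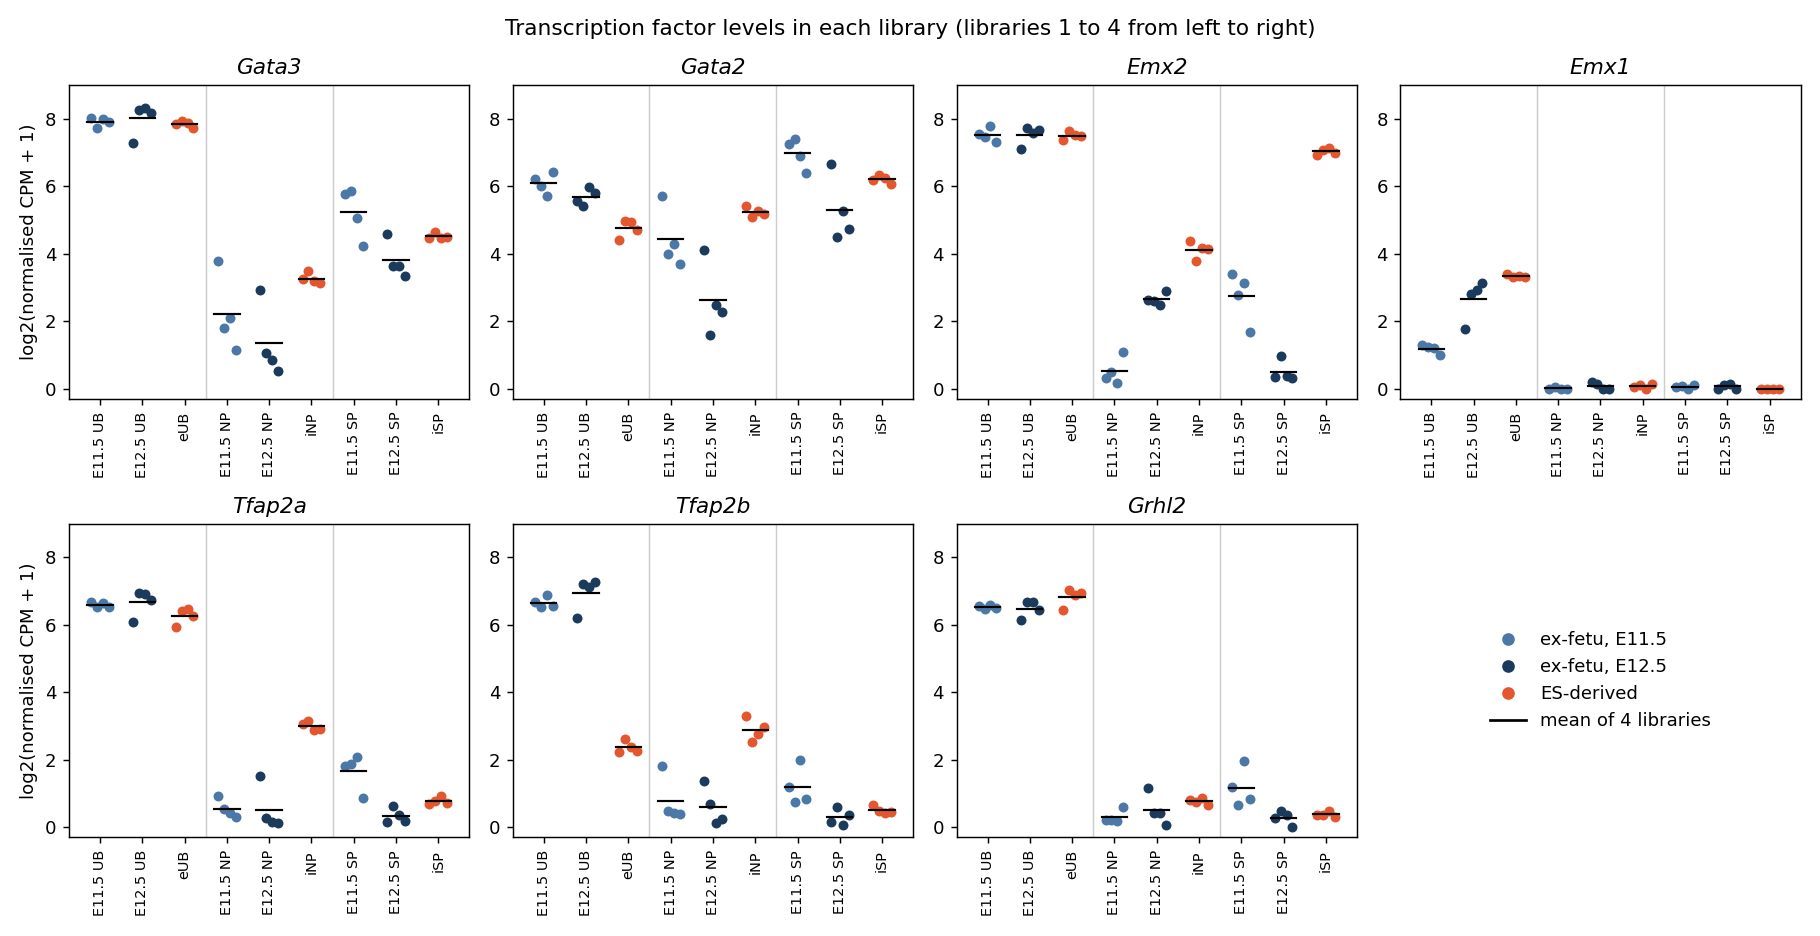
Levels of the 7 members in every library, as log2(normalised CPM + 1) on the vertical axis, with 1 panel per gene, 9 groups of 4 libraries on the horizontal axis, a point for each library and a bar for each group mean. Gata3, Tfap2a and Grhl2 stand high in E11.5 UB, E12.5 UB and eUB alike, Tfap2b is high in ex-fetu UB (means 101 and 128 normalised CPM) but not in eUB (4.21), Emx2 is also high in iSP (129.7), and Gata2 is highest in E11.5 SP (129.7).

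Gata3 in eUB cells lay within the range of ex-fetu UB cells or just below it. It stood at 259.9, 212, 254 and 236 normalised CPM in the 4 E11.5 UB libraries, at 153, 306, 319.8 and 287 in E12.5 UB and at 229.7, 244, 233 and 211 in eUB. The ranges of the 3 groups overlapped. The log2 fold change of eUB against E11.5 UB was -0.07 (95% interval -0.25 to 0.12, adjusted p = 0.52 by limma with Benjamini-Hochberg adjustment), and against E12.5 UB it was -0.16 (-0.65 to 0.33, adjusted p = 0.57). Without the E12.5 UB library that stood apart, which was the lowest of its group, the second difference was -0.41 (adjusted p = 0.0028) and was called.

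In the mesenchymes Gata3 was higher in stroma than in nephron progenitors. The 4 E11.5 SP libraries were at 53.6, 56.7, 32.6 and 17.6, the E12.5 SP libraries at 22.9, 11.4, 11.5 and 9.04 and the iSP libraries at 20.8, 23.8, 21.2 and 21.5, while the NP libraries ranged from 0.437 to 12.7 and the iNP libraries from 7.67 to 10.2. NP fell below SP by 3.03 on the log2 scale at E11.5 (adjusted p = 0.0017), by 2.46 at E12.5 (0.0038) and by 1.26 among the ES-derived cells (1.5e-05, limma with Benjamini-Hochberg adjustment). At E12.5 Gata3 passed the filter only through the SP libraries, so that only a lower NP level could be tested. E11.5 SP also had larger sums of bud markers than E11.5 NP, mostly Wnt11, and their part in the E11.5 difference was not tested. The highest NP library at each age was library 1, at 12.7 and at 6.59, which are the NP libraries named above as standing apart. Gata3 was 1.91 higher in iNP than in E12.5 NP cells (adjusted p = 0.0058), and the same comparison with E11.5 NP gave 1.06 (0.066), or 1.58 (0.0004) without E11.5 NP library 1. Against E12.5 NP it passed the filter only through the iNP libraries, so that only a higher level could be tested.

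The mean of Gata3 in iSP cells lay between the means of the fetal stroma, and the ranges overlapped. It was 0.71 higher than in E12.5 SP on the log2 scale (adjusted p = 0.024, 0.055 to 0.064 without E12.5 SP library 2, 3 or 4 or iSP library 2) and 0.72 lower than in E11.5 SP, which did not pass the test (-0.72, adjusted p = 0.067). Without E11.5 SP library 4, the lowest of its group, the latter was -1.05 (adjusted p = 0.00037). Against its own mesenchymes, the bud had 4.20 more Gata3 on the log2 scale at E11.5, 5.44 at E12.5 and 3.97 among the ES-derived cells. These differences were not called different between ES-derived and E11.5 cells (-0.23, adjusted p = 0.68) and were smaller in ES-derived than in E12.5 cells (-1.47, adjusted p = 0.0092).

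Gata2 was lower in eUB than in ex-fetu UB cells. The 4 E11.5 UB libraries had 73.8, 63.3, 51.6 and 85.4 normalised CPM, the E12.5 UB libraries 46.4, 41.6, 61.4 and 54.5, and the eUB libraries 19.97, 30.3, 29.8 and 24.8. Every eUB library lay below every ex-fetu UB library. The log2 fold change was -1.35 ± 0.17 (SE) against E11.5 UB (2.62-fold by the means, adjusted p = 9.5e-05) and -0.94 ± 0.16 against E12.5 UB (1.95-fold, 0.0018, limma with Benjamini-Hochberg adjustment). Macrophage markers moved with this difference: Ptprc, Csf1r, Cx3cr1, Adgre1 and C1qa summed to 44.1 to 69.7 in E11.5 UB and 36.0 to 62.7 in E12.5 UB, where 5 of 5 averaged 1 or more, and to 0.223 to 0.429 in eUB, where 0 of 5 did and Cx3cr1 and C1qa were at 0 in all 4 libraries. Their part in the Gata2 difference was not tested.

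The group with the most Gata2 was E11.5 SP, at 150.0, 169, 117 and 82.1 normalised CPM, and 3 of its 4 libraries lay above every UB library. The E12.5 SP libraries had 100.4, 21.4, 37.4 and 25.8, the iSP libraries 71.2, 79.7, 74.6 and 65.9, the E11.5 NP libraries 51.1, 14.9, 18.7 and 11.97, the E12.5 NP libraries 16.2, 2.01, 4.62 and 3.81 and the iNP libraries 41.8, 32.8, 37.5 and 35.4. The single high value in E12.5 SP and in each NP group came from library 1. Stroma exceeded nephron progenitors in all 3 sources, by 2.56 (adjusted p = 0.00074), 2.68 (0.0062) and 0.97 (5.7e-05) on the log2 scale, NP being the lower. Erythroid markers, which include the GATA factor gene Gata1, summed to 4.37 to 128 in E11.5 SP, 28.1 to 286 in E12.5 SP and 0.242 to 0.394 in iSP. Gata1 itself averaged 0.186, 0.341 and 0 in these groups. The part of erythroid cells in the Gata2 values was not tested.

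As a contrast between bud and mesenchymes, Gata2 changed sign between sources. UB exceeded the mesenchymes by 0.39 at E11.5 (95% interval -0.27 to 1.06, adjusted p = 0.30), or 0.61 without E11.5 NP library 1 (adjusted p = 0.018), and by 1.73 at E12.5 (0.008). The eUB cells had less than the ES-derived mesenchymes, by -0.97 (5.1e-06). The contrast was smaller in ES-derived cells than at E11.5, by -1.37 (0.0027), and than at E12.5, by -2.71 (0.00012, limma with Benjamini-Hochberg adjustment). Among the induced mesenchymes, iNP had 2.62 more Gata2 than E12.5 NP on the log2 scale (0.00088), and iSP had less than E11.5 SP (-0.78, 0.0061). The difference of iNP from E11.5 NP (0.81, 0.073) was called without E11.5 NP library 1 (1.24, 0.00023), and that of iSP from E12.5 SP (0.91, 0.069) was called without E12.5 SP library 1 (1.37, 2.8e-05).

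Emx2 levels of eUB and ex-fetu UB cells overlapped, and Emx2 was far higher in iSP than in fetal stroma. In the bud it had 186, 176, 218 and 157 normalised CPM in E11.5 UB, 137, 211, 191 and 204 in E12.5 UB and 164, 199, 180.5 and 177 in eUB. The 3 groups overlapped throughout, and the log2 fold change of eUB was -0.02 against E11.5 UB (95% interval -0.26 to 0.21, adjusted p = 0.86) and -0.03 against E12.5 UB (-0.34 to 0.29, 0.89).

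In stroma the values were 9.54, 5.81, 7.71 and 2.18 for E11.5 SP, 0.271, 0.968, 0.287 and 0.229 for E12.5 SP, which are 5, 48, 6 and 5 reads, and 121, 134, 139.9 and 124 for iSP. The iSP libraries lay above every other mesenchyme library and below every eUB library. By the means, iSP had 20.5 times the Emx2 of E11.5 SP (log2 fold change 4.29 ± 0.31, adjusted p = 2.8e-06) and 296 times that of E12.5 SP (6.53 ± 0.16, 6.3e-09, limma with Benjamini-Hochberg adjustment). The 8 bud markers summed to 53.8 to 64.5 in iSP, to 124 to 270.2 in E11.5 SP and to 75.2 to 95.8 in E12.5 SP, most of it Wnt11, which stroma itself expresses (36.2, 120.0 and 64.2). The 11 epithelial genes summed to 16.8 to 27.5, 39.6 to 114.5 and 7.70 to 23.6 in these groups. Ret and Wnt9b averaged 0.476 and 0.0487 in iSP, against 473 and 66.7 in eUB. The part of other cell types in the Emx2 values of iSP was not tested.

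Emx2 was also higher in iNP than in fetal NP cells. The iNP libraries had 19.8, 12.8, 17.0 and 16.5, the E12.5 NP libraries 5.201, 5.05, 4.60 and 6.35, and the E11.5 NP libraries 0.234, 0.403, 0.128 and 1.13, the last being 6, 12, 3 and 33 reads. The ranges of the 3 groups did not overlap. The log2 fold changes of iNP were 3.60 against E11.5 (adjusted p = 6.8e-07) and 1.47 against E12.5 NP (7.2e-05). With age, Emx2 was 2.13 higher in E12.5 than in E11.5 NP cells (0.0013) and lower in E12.5 than in E11.5 SP cells (-2.24, 0.0065). NP lay below SP at E11.5 (-2.23, 0.00079) and above it at E12.5 (2.15, 1.5e-05). In these 4 comparisons Emx2 passed the filter only through the group where it is high, since 1 of 4 E11.5 NP and 0 of 4 E12.5 SP libraries reached a value of 1, so that only a difference in that direction could be tested. E11.5 SP also had larger sums of bud markers than E11.5 NP, mostly Wnt11, and their part in the Emx2 difference was not tested.

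The contrast of bud to mesenchymes in Emx2 was smaller among ES-derived cells than in fetal cells. It was 5.90 at E11.5, 5.95 at E12.5 and 1.93 in ES-derived cells, so that the ES-derived contrast was smaller by -3.97 (adjusted p = 3e-10) and by -4.03 (2.9e-13). Emx2os, which is transcribed from the opposite strand and overlaps the start of Emx2, averaged 22.6 in E11.5 UB, 23.1 in E12.5 UB, 10.5 in eUB, 1.46 in iNP, 9.54 in iSP and at most 1.41 in fetal mesenchymes. The libraries were stranded, but whether the counting used the strand is not given in the sources used here, so reads of the overlapping stretch may have been assigned to either gene.

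Emx1 was low in every bud group and highest in eUB cells. It stood at 1.45, 1.37, 1.28 and 0.996 normalised CPM in E11.5 UB, at 2.37, 6.01, 6.58 and 7.73 in E12.5 UB and at 9.50, 8.98, 9.15 and 8.82 in eUB. The 3 groups did not overlap. The eUB cells had 7.15 times the mean of E11.5 UB (log2 fold change 2.16 ± 0.10, adjusted p = 2e-07), and their difference from E12.5 UB (0.68, 0.066) passed the test without E12.5 UB library 1, the lowest of its group (0.38, 0.016). E12.5 UB exceeded E11.5 UB by 1.47 (0.0049), and Emx1 was the only 1 of 7 members called between the UB ages, where 26.5% of all genes were called. As 1 E11.5 UB library was at 0.996, Emx1 passed the filter against E11.5 UB only through the eUB or the E12.5 UB libraries. Only a higher level there could thus be tested. No mesenchyme library exceeded 0.154, and Emx1 was at 0 in all 4 iSP libraries. Emx1 was under the filter in E11.5 bud against mesenchymes, where a two-sided exact permutation test of the 4 UB against the 8 mesenchyme libraries gave p = 0.00202, the smallest value that design allows.

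Tfap2b was the member that differed most between eUB and ex-fetu UB cells. It had 101, 90.5, 117 and 93.8 normalised CPM in the E11.5 UB libraries, 73.0, 148, 138 and 154 in the E12.5 UB libraries and 3.71, 5.11, 4.21 and 3.79 in the eUB libraries. The highest eUB library was far below the lowest ex-fetu one, which was again the E12.5 UB library that stood apart. By the means Tfap2b was 23.9-fold lower in eUB than in E11.5 UB (log2 fold change -4.29 ± 0.11, adjusted p = 9.2e-09) and 30.5-fold lower than in E12.5 UB (-4.58 ± 0.23, 2.6e-06), or -4.83 without that library.

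Its closest relative in the set, Tfap2a, moved far less. The values were 102, 92.3, 99.1 and 90.6 in E11.5 UB, 66.7, 123, 120.1 and 106 in E12.5 UB and 59.9, 84.3, 87.5 and 76.5 in eUB. The highest eUB value lay below the lowest of E11.5 UB, and the eUB and E12.5 UB ranges overlapped. The log2 fold change was -0.33 ± 0.12 against E11.5 UB (adjusted p = 0.032, and 0.053 to 0.086 without E11.5 UB library 1, 2 or 3 or eUB library 4) and -0.40 against E12.5 UB (0.14), the latter -0.60 (0.0058) without E12.5 UB library 1. Macrophage markers, which were low in eUB as described above, differed beside both AP-2 genes. Surface ectoderm markers summed to 18.2 to 44.1 in E11.5 UB, 8.90 to 16.0 in E12.5 UB and 18.7 to 27.9 in eUB, with Krt5 at 6.21, 1.54 and 0.432. In eUB most of that sum was Perp (21.9), with Trp63 at 1.35, Krt14 at 0.0285 and Krt15 at 0.0461. The 5 neural crest markers summed to 415 to 483, 233 to 424 and 262 to 288 in the same groups. Of the crest markers, Erbb3, which bud cells express, averaged 454, 365 and 257, and Sox10 averaged 1.52, 0.372 and 16.6. The part of these cells was not tested.

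Both AP-2 genes were higher in iNP cells than in fetal nephron progenitors. Tfap2a had 7.35, 7.94, 6.33 and 6.53 in iNP, 0.896, 0.470, 0.341 and 0.239 in E11.5 NP and 1.85, 0.221, 0.113 and 0.103 in E12.5 NP. Tfap2b had 8.86, 4.82, 5.80 and 6.87 in iNP, 2.53, 0.403, 0.341 and 0.308 in E11.5 NP and 1.57, 0.613, 0.0906 and 0.180 in E12.5 NP. Every iNP library exceeded every fetal NP library for both genes. Against E11.5 NP the log2 fold changes were 2.45 (adjusted p = 9.8e-07) and 2.12 (0.00025), and against E12.5 NP they were 2.48 (8.2e-05) and 2.29 (0.00011, limma with Benjamini-Hochberg adjustment).

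In iNP cells Tfap2b was as high as in eUB: the mean of 6.59 was above the eUB mean of 4.21, and the ranges overlapped. Markers of other cell types were also present in iNP. The 8 bud markers summed to 93.8 to 98.3 in iNP, 41.7 to 51.8 in E11.5 NP and 25.7 to 93.0 in E12.5 NP, and the 11 epithelial genes to 69.1 to 82.8, 31.0 to 43.7 and 38.9 to 95.3. The 5 neural crest markers summed to 23.7 to 35.4 in iNP, 19.8 to 51.1 in E11.5 NP and 7.14 to 18.3 in E12.5 NP. Among them Sox10 averaged 11.1, 2.18 and 0.0757, Foxd3 5.39, 0.882 and 0.0774, and Erbb3 9.31, 23.8 and 8.48 in these groups. The 6 neural tube markers summed to 10.6 to 13.8 in iNP, with Sox1 at 5.96, and to at most 3.27 in fetal NP. The 5 surface ectoderm markers summed to 1.93 to 2.46 in iNP, 2.53 to 3.12 in E11.5 NP and 2.18 to 3.29 in E12.5 NP, with Krt5 and Krt14 at 0 in all 4 iNP libraries. The part of such cells in the AP-2 values was not tested.

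In stroma both AP-2 genes stayed below 3.3 normalised CPM in every library and were under the filter. At E11.5 SP Tfap2a had 2.503, 2.67, 3.22 and 0.832 and Tfap2b had 1.30, 0.681, 3.02 and 0.780, all above the E12.5 SP libraries, which reached 0.544 and 0.524. The two-sided exact permutation test gave p = 0.0286 for both, the smallest that 4 against 4 libraries allow, among 31 such tests of members under the filter and without adjustment. The iSP libraries held 0.628 to 0.887 of Tfap2a and 0.332 to 0.580 of Tfap2b. Both AP-2 genes were thus higher in iNP than in iSP, by 2.22 (adjusted p = 7.1e-07) and 2.39 (4.3e-06).

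The contrast of bud to mesenchymes was smaller in ES-derived than in fetal cells for both. For Tfap2a it was 5.49 at E11.5, 6.25 at E12.5 and 4.38 in ES-derived cells, a difference of -1.11 (adjusted p = 0.00033) and -1.87 (2.3e-05). For Tfap2b it was 5.67, 6.51 and 0.67, a difference of -5.00 (2.4e-11) and -5.83 (9e-13). The call of 0.67 for eUB against the ES-derived mesenchymes (0.00061) is against the mean of iNP cells, whose mean lay above that of eUB, and of iSP cells, all of which lay below it.

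Grhl2 was high in every bud group and low in the mesenchymes of all 3 sources. It stood at 93.5, 88.2, 94.4 and 89.6 normalised CPM in E11.5 UB, at 69.4, 101, 102 and 86.6 in E12.5 UB and at 86.1, 129, 118 and 123 in eUB. Of these, eUB library 1 was below all E11.5 UB libraries and the other 3 were above them. The log2 fold change of eUB was 0.30 (95% interval 0.03 to 0.56, adjusted p = 0.051) against E11.5 UB and 0.34 (-0.02 to 0.71, 0.11) against E12.5 UB. Without eUB library 1 these were 0.43 (1.9e-05) and 0.47 (0.018), both called. In the mesenchymes no library exceeded the 2.90 of E11.5 SP library 3, in which the 11 epithelial genes described below also had the highest sum of that group (114.5 against 39.6 to 68.3). The contrast of bud to mesenchymes was 5.80 at E11.5, 6.08 at E12.5 and 6.25 in ES-derived cells, and the ES-derived value differed by 0.45 (95% interval -0.02 to 0.93, adjusted p = 0.11) and by 0.17 (-0.30 to 0.63, 0.58). The former was called without eUB library 1 (0.58, 0.039) and without E11.5 SP library 2 (0.54, 0.042).

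**Figure D2:**
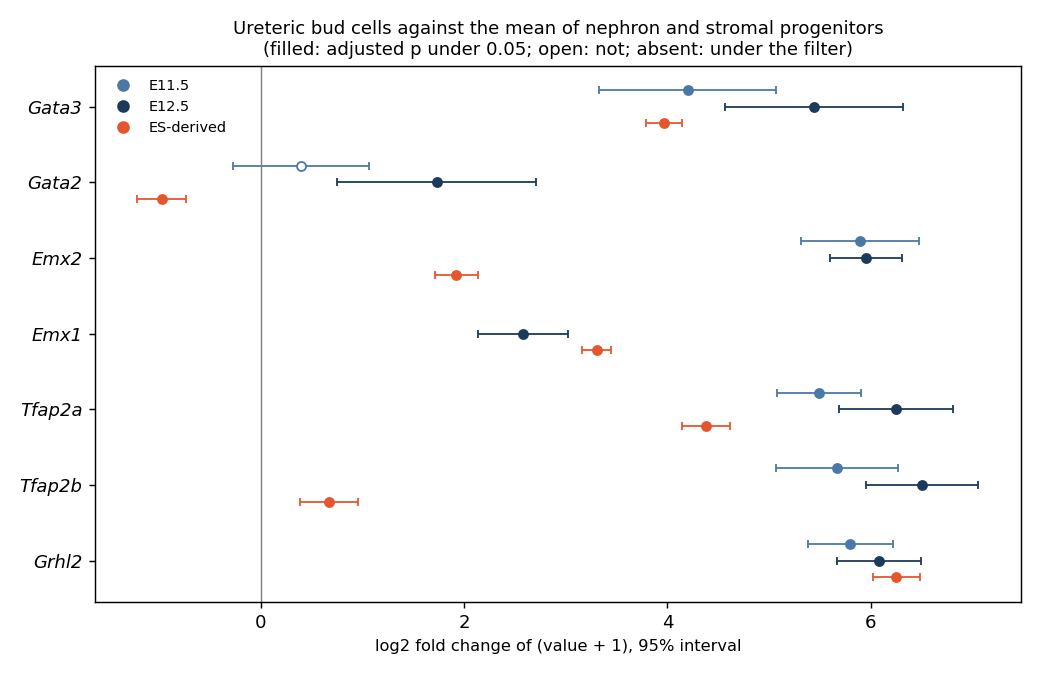
Difference of each bud group from the mean of the NP and SP groups of its own source, as log2 fold change with its 95% interval, for each member at E11.5, at E12.5 and in ES-derived cells. Filled points are called and open points are not, and Emx1 at E11.5 is under the filter. Gata3, Tfap2a and Grhl2 have differences near 4 to 6 in every source. Those of Gata3 and Tfap2a are smaller in ES-derived than in E12.5 cells, and that of Tfap2a also than in E11.5 cells. Emx2 drops from 5.90 at E11.5 to 1.93, Tfap2b from 5.67 to 0.67 and Gata2 turns to -0.97 in ES-derived cells.

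Between sources of the bud, 4 of 7 members were called in eUB against E11.5 UB, beside 60.5% of all genes. Of these, 1 was higher (Emx1, which passed the filter only through the eUB libraries) and 3 were lower (Gata2, Tfap2a and Tfap2b). Against E12.5 UB 2 of 7 were called, both lower (Gata2 and Tfap2b), beside 44.4%. Without E12.5 UB library 1, 5 of 7 members and 7251 of 13872 genes were called, which added Gata3 and Tfap2a below and Emx1 above. Without it 4 of 7 members and 6031 of 13772 genes were called between the UB ages, with Gata3 (0.34, adjusted p = 0.002), Tfap2a (0.27, 0.0057) and Tfap2b (0.54, 0.00018) higher at E12.5 beside Emx1 (1.77, 2.4e-06). The difference in Gata2 between E12.5 and E11.5 UB (-0.41, 0.094) was called without E11.5 UB library 3 (-0.54, 0.035).

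In iNP cells 3 of the 5 members that passed the filter were higher than in E11.5 NP and 0 lower, beside 64.7% of all genes, and 5 of 5 were higher than in E12.5 NP, beside 44.3%. Tfap2a and Tfap2b at either age, Emx2 at E11.5 and Gata3 at E12.5 passed the filter only through the iNP libraries, so that only a higher level could be tested. In iSP cells 1 of 3 was higher and 1 lower than in E11.5 SP (67.6% of all genes called), and 2 of 3 were higher than in E12.5 SP (62.1%), where Emx2 passed only through the iSP libraries. Endothelial markers had larger sums in iNP than in fetal NP, and in iSP than in E12.5 SP, while the ranges of iSP and E11.5 SP overlapped. The 6 of them summed to 46.0 to 76.9 in iNP against 8.62 to 25.3 in E11.5 NP and 7.33 to 26.6 in E12.5 NP, and to 32.7 to 50.3 in iSP against 15.4 to 39.2 and 19.1 to 25.9 in fetal SP. Gata2 is also an endothelial gene, and the part of such cells in its values was not tested.

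**Figure D3:**
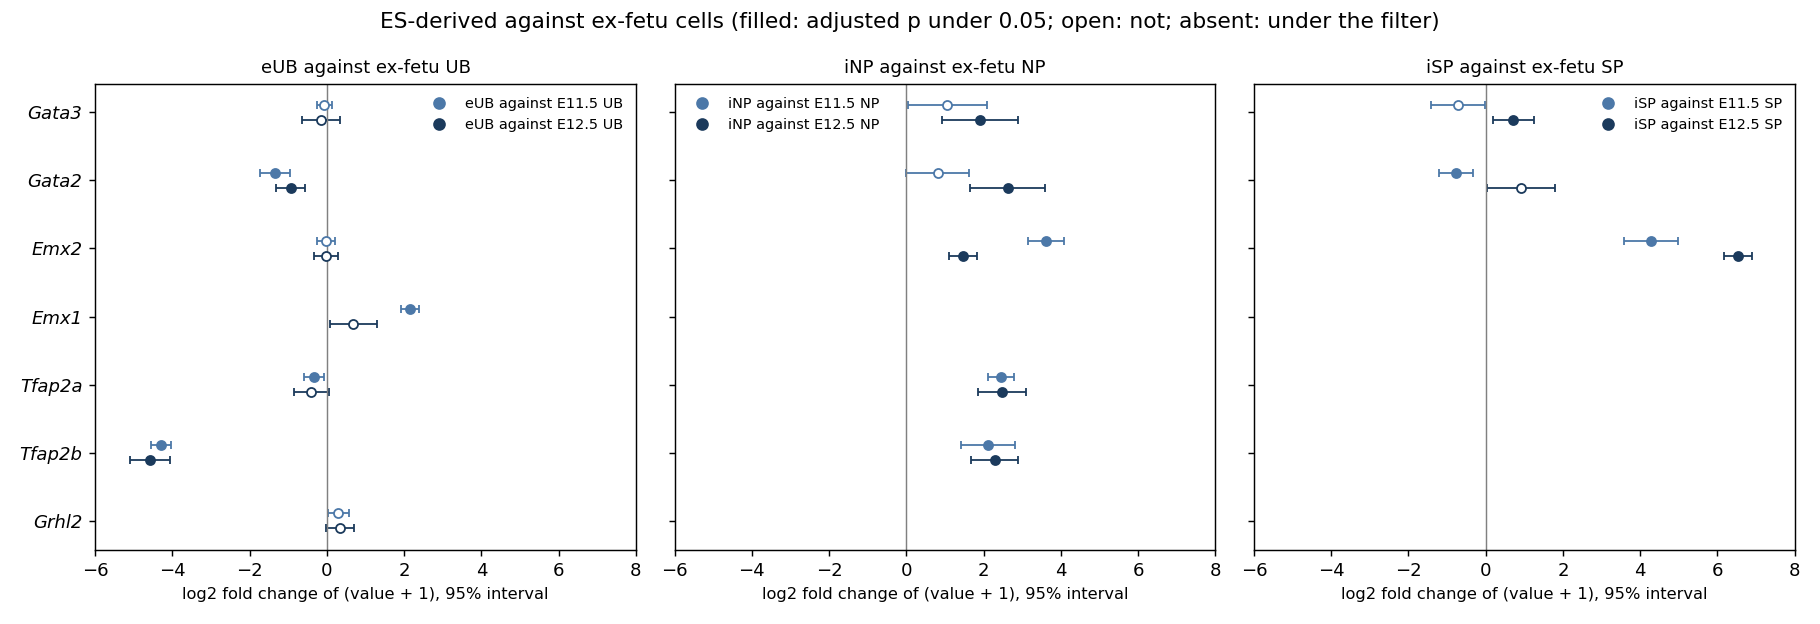
Difference of ES-derived from ex-fetu cells of the same type, as log2 fold change with its 95% interval, for each member against E11.5 and against E12.5 cells in panels for UB, NP and SP. Filled points are called, open points are not, and members under the filter are absent. Tfap2b in the bud (-4.29 and -4.58) and Emx2 in the stroma (4.29 and 6.53) lie farthest from 0.

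Between the ages of the mesenchymes, 1 of 3 members that passed the filter was called in NP (Emx2), beside 6.34% of all genes. In SP 3 of 3 were lower at E12.5 than at E11.5, beside 8.52%. Gata3 fell by 1.43 (adjusted p = 0.048) and Gata2 by 1.69 (0.04) on the log2 scale, and both calls were lost without E11.5 SP library 1, 2 or 3 or E12.5 SP library 2, 3 or 4 (adjusted p of 0.10 to 0.15 for Gata3 and 0.096 to 0.13 for Gata2). Emx2 fell by 2.24 (0.0065), and in both cell types it passed the filter only through the age where it is high. The low Gata2 of E12.5 NP relative to E11.5 NP (-1.81, 0.086) was called without E12.5 NP library 1 (-2.31, 0.011).

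Grhl2, under the filter in SP, also had higher values at E11.5 (0.584 to 2.90) than at E12.5 (0 to 0.403; two-sided exact permutation p = 0.0286). Bud markers summed to 124 to 270.2 in E11.5 SP and 75.2 to 95.8 in E12.5 SP, most of it Wnt11 at 120.0 and 64.2, which stroma itself expresses, and epithelial genes to 39.6 to 114.5 and 7.70 to 23.6. Their part in the higher E11.5 values was not tested. Between NP and SP, 3 of 3 members were lower in NP at E11.5 (43.1% of all genes called), 2 of 3 were lower and 1 higher at E12.5 (34.8%), and 3 of 5 were lower and 2 higher among the ES-derived cells (30.7%), the 2 being Tfap2a and Tfap2b, which passed only through the iNP libraries. Emx2 at E11.5 and Gata3 at E12.5 passed only through the SP libraries, and Emx2 at E12.5 only through the NP libraries. At E12.5 the replicate numbers paired the NP and SP samples, and with the number as a block 7961 rather than 4789 genes were called and the 3 members were called as before. Of the bud-to-mesenchyme contrasts themselves, 5 of 7 differed between ES-derived and E11.5 cells, 1 larger and 4 smaller, beside 49.6% of all genes, and 6 of 7 between ES-derived and E12.5 cells, 1 larger and 5 smaller, beside 39.4%. The larger one at E12.5, Emx1 (0.72, adjusted p = 0.011), was 0.42 (0.0027) without E12.5 UB library 1. Emx1 was near 0 in every mesenchyme library, so this contrast rests on the bud groups. The direct difference of eUB from E12.5 UB was not called with all libraries.

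Levels per kilobase of merged exons, which allow genes to be set beside each other, gave the same leading pair in every bud group. Emx2 and Gata3 averaged 61.4 ± 8.54 and 60.5 ± 5.38 (SD, n = 4) normalised CPM per kb in E11.5 UB, 61.8 ± 11.2 and 67.0 ± 19.3 in E12.5 UB and 60.0 ± 4.71 and 57.7 ± 3.42 in eUB, and the pair overlapped in each group. Tfap2a came next, at 19.6, 21.2 and 15.7 per kb. Tfap2b followed in the ex-fetu groups (15.9 and 20.2) and last in eUB (0.663), below Emx1 at 4.17. Grhl2 was at 10.6, 10.4 and 13.2 and Gata2 at 12.7, 9.44 and 4.85 per kb, so that the order of these 2 changed between E11.5 UB, where they overlapped, and eUB, where they did not. With lengths of the longest transcript, 12 of the 21 ranks in the 3 bud groups stayed.

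Genes of the duct and bud network, with which these factors act, were compared from a list of 18. In the bud against the mesenchymes 18 of 18 were higher in each of the 3 sources, with a median log2 difference of 2.84, 3.44 and 3.05 (56.4%, 40.3% and 62.9% of all genes were called), and Ret and the reporter gene of the eUB line, Sox9 or Sox8, had served in the sorts. In eUB against E11.5 UB 5 were higher, 6 lower and 7 not called (60.5% of all genes were called; median -0.02, beside 0.02 over all genes), and against E12.5 UB 4 were higher and 10 lower (44.4% of all genes; median -0.53, beside -0.01). The largest changes against E11.5 UB were of Calb1, a calcium-binding protein of the bud stalk (608 to 41.4 normalised CPM, log2 fold change -3.85), the signalling genes Wnt9b (308 to 66.7, -2.19) and Wnt7b (125 to 33.9, -1.86), both of the stalk, and the SoxE factor gene Sox8 (22.7 to 86.9, 1.89), on whose reporter the eUB cells may have been sorted.

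**Figure D4:**
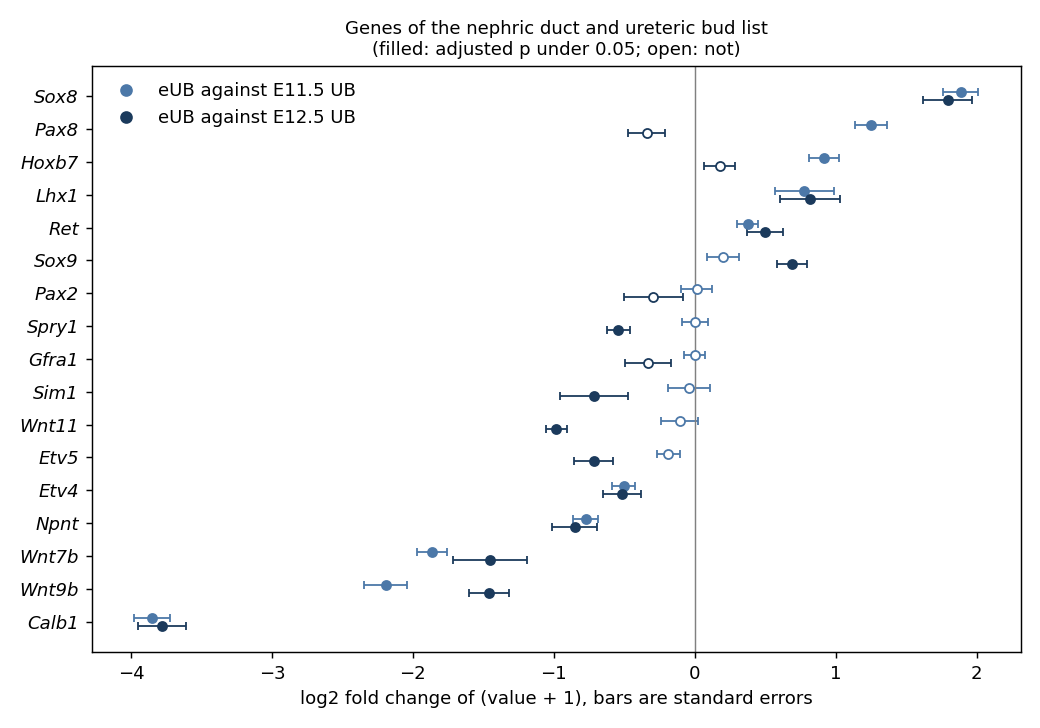
Log2 fold change of all but 1 of the 18 duct network genes in eUB against E11.5 UB and against E12.5 UB, with the standard error as a bar for each gene, filled where called and open where not. Calb1 lies farthest below 0 in both comparisons (-3.85 and -3.78) and Sox8, which may have served in the eUB sort, farthest above it (1.89 and 1.79).

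In the induced mesenchymes the same list held 8 higher and 3 lower of 16 tested in iNP against E11.5 NP (64.7% of all genes were called; median 0.58, beside 0.07 over all genes). Lhx1, a homeobox factor of the duct and of the early nephron, was higher by 3.85 on the log2 scale, Pax8 by 2.75, and Npnt, a ligand of the integrin ITGA8, was lower (-2.56). Against E12.5 NP 6 were higher and 3 lower of 16 (44.3% of all genes). In iSP against E11.5 SP 5 were higher and 8 lower of 18 (67.6% of all genes; median -0.52, beside 0.04), led by Ret (-3.66) and Pax8 (2.81). Against E12.5 SP 7 were higher and 4 lower of 15 (62.1% of all genes).

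Epithelial genes known as targets or partners of grainyhead factors (a list of 11 with Cdh1, Epcam, claudins, Esrp1 and Esrp2, Ovol1 and Ovol2, and Rab25) were 11 of 11 higher in the bud than in the mesenchymes in each source, with medians of 5.72, 6.54 and 5.95, Epcam having served in the sorts. The shares of all genes called were 56.4%, 40.3% and 62.9%. Only 3 of the 11 averaged 1 or more in E12.5 SP and 5 in iSP, and genes that passed the filter through the bud libraries alone, in this list and in that of the duct network, could only be called higher. In eUB against E11.5 UB 0 were higher, 4 lower and 7 not called (median -0.28, beside 0.02), the 4 being the repressor Ovol2 (-0.90), the splicing factor Esrp1 (-0.81), the claudin Cldn7 (-0.60) and the trafficking gene Rab25 (-0.47). Against E12.5 UB 1 was higher (Cldn4, 0.91) and 1 lower (Ovol1, -1.001). In iNP against E11.5 NP 4 of 8 tested were higher, led by the adhesion gene Cdh1 (2.37), and 0 lower. In iSP against E11.5 SP 0 of 7 were higher and 6 lower, and against E12.5 SP 4 of 5 were higher and 0 lower. Some genes passed the filter in the iSP comparisons only through the group where they are higher, and could be called in that direction only. In these 5 comparisons 60.5%, 44.4%, 64.7%, 67.6% and 62.1% of all genes were called, which are also the shares to read the counts of the next lists against.

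Of 9 other genes of the GATA, AP-2 and grainyhead families, 8 were in the table and most were low in the bud. In eUB against E11.5 UB 4 passed the filter, with 1 higher (Tfap2c, 3.52 to 10.9 normalised CPM, log2 fold change 1.504) and 1 lower (Grhl1, 14.2 to 2.23, -2.23). Against E12.5 UB 2 were higher (Grhl3, 1.55, and Tfap2c, 1.35) and 1 lower (Grhl1, -1.30). Grhl3 passed the filter there only through the eUB libraries, so that only a higher level could be tested. Tfap2b and Grhl1 were therefore below fetal levels in eUB while Tfap2c was above them. In iNP against E11.5 NP 3 of 5 were higher and 0 lower, namely the mesoderm factors Gata5 (2.32) and Gata6 (2.31), and Tfap2c (1.86). Against NP of either age, Gata4, Gata5 and Tfap2c passed the filter only through the iNP libraries, so that only a higher level could be tested. In iSP against E11.5 SP 0 of 4 were higher and 3 lower, among them Gata4 (-1.75) and Gata6 (-1.31, from 118 to 46.9 normalised CPM). Against E12.5 NP 4 of 5 were higher, where 44.3% of all genes were called. Against E12.5 SP 1 of 4 was higher (Gata4, 1.01) and 1 lower (Gata6, -1.50), so that Gata4 in iSP lay between the fetal ages. Against E12.5 SP, Gata4 passed the filter only through the iSP libraries, so that only a higher level could be tested.

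Of 6 cofactor genes of these families (Zfpm1 and Zfpm2 bind GATA factors, Cited2 and Cited4 are coactivators and Kctd1 and Kctd15 repressors of AP-2), 2 were higher and 2 lower in eUB than in E11.5 UB, where 60.5% of all genes were called, so that the share of cofactors called was near that of all genes. Cited4 was 2.38 higher on the log2 scale (11.5 to 66.1 normalised CPM) and Cited2 0.29 higher, while Kctd15 (-0.84) and Zfpm1 (-0.82) were lower. Against E12.5 UB 1 was higher (Cited4, 1.46) and 2 lower (Kctd15, -0.83, and Kctd1, -0.49). In iNP against E11.5 NP 0 of 5 were higher and 4 lower, led by Zfpm1 (-2.18). In iSP against E11.5 SP 1 of 5 was higher and 3 lower, led by Zfpm2 (-1.90). Against E12.5 NP, Zfpm2 was higher in iNP (0.69), and Zfpm1 (-1.18), Kctd1 (-0.71) and Cited2 (-0.58) were among those lower. Against E12.5 SP, Zfpm1 was higher in iSP (1.21) and Zfpm2 lower (-2.63), and the others tested were not called.

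The genes whose profile over the 9 group means was most like that of a member were named for each, by the Pearson correlation of log2 values, as a description over 9 points that share the same 3 cell types. For Gata3 they were Itpripl1 (r = 0.985), Src (0.981) and Swap70 (0.978), for Gata2 Klhdc8b (0.918), Snap29 (0.905) and Fchsd1 (0.898), and for Emx2 Ddt (0.976), Ephb2 (0.973) and the overlapping Emx2os (0.965). For Emx1 they were Samd9l (0.998), Kcna2 (0.989) and Cldn23 (0.983), for Tfap2a Kcnk5 (0.994), Prkcz (0.994) and Spint1 (0.992), for Tfap2b Pde1b (0.985), Lama1 (0.984) and Tcp11 (0.973), and for Grhl2 Cldn3 (0.999), Wnt10a (0.998) and Gpr39 (0.998). Over the 36 libraries 10 of these 21 genes stayed among the 3 most like their member. The values for Gata2 were the lowest of the set.

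Other genes that overlap members had low values. Gm16136, antisense to the start of Grhl2, averaged 10.4 in E11.5 UB, 15.4 in E12.5 UB and 11.03 in eUB and at most 0.351 in the mesenchymes. Within Gata3 (chromosome 2, 9857078 to 9890034, minus strand), 4930412O13Rik on the other strand averaged 6.22, 7.71 and 4.70 in these bud groups, 9230102O04Rik on the same strand 2.39, 3.91 and 2.66, and Gm13256 on the other strand at most 0.843. Gm26688, antisense to Tfap2a (chromosome 13, 40715302 to 40738376, minus strand), averaged at most 1.39. Emx2 lies on chromosome 19 (59458372 to 59465357, plus strand), Emx1 on chromosome 6 (85187438 to 85204462, plus strand) and Grhl2 on chromosome 15 (37233036 to 37363569, plus strand). These positions are from GENCODE vM21 on GRCm38 and were matched by Ensembl identifier, since the build is written as GRCh38 by the submitters although the identifiers are of mouse.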

How the data were processed

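RNA from sorted cells was made into libraries with a stranded mRNA kit of Illumina (TruSeq per the labels, Stranded mRNA Prep per the paper's methods), and 36 libraries in 9 groups of 4 were analysed. Per the paper's methods and the submitters' processing notes, the authors used Cutadapt for trimming and STAR for alignment, and deposited 1 signal per gene and library, the normalised CPM: reads of the gene relative to the library's total after scaling with normalisation factors from edgeR. The methods give versions of Cutadapt and STAR, which are not repeated here, and say that raw counts were filtered. The filter's criterion, the program that counted reads and whether it used strand, and the annotation release are not given in the sources used here, and the build is written as GRCh38 although the identifiers are of mouse. A second deposited table holds the authors' own comparisons with fold changes, p-values and false discovery rates, and was not used.

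All deposited values were whole multiples of the worth of 1 read (tolerance 0.001 reads), which gave reads and depth. Intervals and limits from reads cover counting error only. Differences were fitted with limma 3.58.1 (R 4.3.3; lmFit and eBayes with a trend) on log2(normalised CPM + 1) over genes at 1 or more in at least 4 libraries of the fit, with only the groups compared in each fit and Benjamini-Hochberg adjustment at 0.05 over all genes tested. Members under the filter were compared by two-sided exact permutation tests (31 tests, without adjustment). In simulated data 100% of 200 genes changed by 1 or 2 on the log2 scale were recovered for eUB against E11.5 UB, and 0.0727% of the unchanged genes of 13954 were called. Smaller changes were not simulated. The simulated libraries varied little, with the same small dispersion for every gene, and genes with low values were not among those changed. The recovery therefore does not cover low members or groups whose libraries vary more. Alternatives were other pseudocounts, filters and scalings, edgeR 4.0.16 on the recovered reads, 1 fit of all libraries, a replicate block and leaving out each library.

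The replicate numbers were taken to pair samples only between E12.5 NP and E12.5 SP, where the deviations from the group means of same-numbered libraries correlated in all 4 pairs (r = 0.519 to 0.682). The genes named were the 7 members, at most 4 genes per list and comparison by size of change, the 3 genes most like each member among genes with a group mean of 5 or more in at least 1 group, and cell type markers. The members and the lists were chosen with earlier results of these data known. Values of 1 gene of the duct network list and of 2 neural crest markers are not reported here, while counts, medians and sums over the lists include them.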

Additional observations from a re-analysis of the deposited data

Results flagged for a closer look

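In 42 combinations of a member and a group whose mean was 1 or more, Dixon's test at 95%, on the log2 scale, singled out 2 values, where chance alone gives about 1 in 20. Both were of E12.5 UB library 1, the lowest of its group for Gata3 (153.0 normalised CPM) and for Tfap2b (73.0). That library also held the nephron progenitor, stroma and endothelial markers (84.4 against 3.22 to 6.28 for the latter) given in the report, and their part in these values was not tested.

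The contrast of ureteric bud to mesenchymes differed between ES-derived and fetal cells, by the test of the difference itself, in 11 of 14 cases, beside 49.6% of all genes relative to E11.5 and 39.4% relative to E12.5. Relative to E11.5 it was smaller for Gata2 (-1.37), Emx2 (-3.97), Tfap2a (-1.11) and Tfap2b (-5.00) and larger for Emx1 (2.16). Relative to E12.5 it was smaller for Gata3 (-1.47), Gata2 (-2.71), Emx2 (-4.03), Tfap2a (-1.87) and Tfap2b (-5.83) and larger for Emx1 (0.72, or 0.42 without E12.5 UB library 1). Emx1 was near 0 in every mesenchyme library, so its contrasts rest on the bud groups. The direct difference of eUB from E12.5 UB in Emx1 was not called with all libraries. The E11.5 and E12.5 differences share the ES-derived samples. In ES-derived cells the bud and the mesenchymes came from different mESC lines and protocols, which cannot be told apart from cell type.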

How the results depend on the processing

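Of the values of single members that passed their test, 1229 kept direction and call under an alternative and 39 lost the call, and of those that did not pass, 377 stayed so, 35 passed and 22 changed sign. The count of members called moved by more than 1.5 times as follows, and the cause was not tested. With the replicate block it was 4 instead of 2 in eUB against E12.5 UB, 5 instead of 3 in iNP against E11.5 NP and 3 instead of 1 between the NP ages, where the samples share only a number, and it left the other counts within 1.5 times. In 1 fit of all 36 libraries it was 5 instead of 3 in iNP against E11.5 NP, 4 instead of 2 in iSP against E11.5 SP, 1 instead of 2 in iSP against E12.5 SP, 2 instead of 1 between the NP ages, 6 instead of 3 between the SP ages and 5 instead of 3 in E11.5 NP against SP. With edgeR it was 1 in iSP against E12.5 SP and 1 between the SP ages. Without the filter it was 5 in E11.5 NP against SP and 5 in iSP against fetal SP of E11.5, and with a filter that needs 6 of the 12 libraries 3 instead of 7 in E12.5 bud against mesenchymes, since fewer members are tested there.

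Leaving out single libraries gave 3 to 5 members in eUB against E11.5 UB, 2 to 5 in eUB against E12.5 UB, 3 to 5 in iNP against E11.5 NP, 2 to 3 in iSP against E11.5 SP, 1 to 3 in iSP against E12.5 SP, 1 to 4 between the UB ages, 1 to 2 between the NP ages, 1 to 3 between the SP ages, 5 to 6 in E11.5 bud against mesenchymes and 5 to 6 for the difference of the contrasts at E11.5. The remaining comparisons held 5 (iNP against E12.5 NP), 7 (E12.5 and ES-derived bud), 3, 3 and 5 (NP against SP) and 6 (contrasts at E12.5).

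Signs changed only for values that passed no test. With quantile normalisation, eUB against E11.5 UB became 0.060 for Gata3 and 0.11 for Emx2, eUB against E12.5 UB became 0.053 for Emx2, and the Gata3 contrast at E11.5 became 0.086. Without normalisation factors Emx2 against E11.5 UB was 0.021. With edgeR Emx2 between the UB ages was -0.0060 and the Grhl2 contrast at E12.5 was -0.025, and with a pseudocount of 0.1 the latter was -0.33. Leaving out single libraries moved Emx2 in eUB from -0.099 to 0.060 against E11.5 UB and from -0.16 to 0.042 against E12.5 UB, and moved Gata3 (-0.011 to 0.34), Emx2 (-0.073 to 0.14), Tfap2a (-0.017 to 0.27) and Grhl2 (-0.11 to 0.071) between the UB ages.

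Calls lost, beside those named in the report, were Gata2 in eUB against E12.5 UB (adjusted p = 0.059), in iSP against E11.5 SP (0.095) and in iNP against iSP (0.075) in 1 fit of all libraries, and Gata3 with edgeR in iNP against E12.5 NP (0.054), in iSP against E12.5 SP (0.067, and 0.15 in 1 fit) and in the contrast at E12.5 (0.051). Tfap2a in eUB against E11.5 UB was lost without the filter (0.054), without normalisation factors (0.054), in 1 fit (0.27) and with the block (0.051). The Emx1 contrast at E12.5 was lost with a pseudocount of 0.1 (0.060), quantile normalisation (0.055) and edgeR (0.061). Between the SP ages Gata3 and Gata2 were lost without the filter (0.097 and 0.089) and with edgeR (0.050 and 0.095), and Gata3 without normalisation factors (0.058). Calls gained were Grhl2 in eUB against E11.5 UB with quantile normalisation (0.0089), without normalisation factors (0.025) and with edgeR (0.039), against E12.5 UB with quantile normalisation (0.034) and the block (0.016), and in the contrast at E11.5 with quantile normalisation (0.034), and Gata3 in iSP against E11.5 SP with quantile normalisation (0.042), edgeR (0.027) and the block (0.048). Also gained were Emx1 (1 fit, 0.00043, and 0.044 without E12.5 UB library 4) and Tfap2a (block, 0.015) in eUB against E12.5 UB, Gata3 (1 fit, 0.030, and block, 0.036) and Gata2 (block, 0.025) in iNP against E11.5 NP, and Gata2 (1 fit, 0.0035, and block, 0.0076) and Gata3 (block, 0.027) between the NP ages. Over all genes, calls between the UB ages were 3648, 2365 with the block, 2359 without E11.5 UB library 1 and 6031 without E12.5 UB library 1. They were 850 between the NP ages (1572 in 1 fit, 188 to 2289 leaving out a library) and 1162 between the SP ages (3141 and 420 to 2943). Values near 1 normalised CPM rest on few reads, so members at that level in the mesenchymes limit what can be called there.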
